A study of Homo sapiens with 18 samples.

Results

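The genes described here are 39 that androgen is known to induce in prostate cells and whose products work outside lipid synthesis, listed by name. A listed gene counted as measured where at least 1 of its probes was detected (detection p under 0.01) on 2 or more arrays, and its brightest such probe gave its value. By this rule 36 of the 39 genes were measured, out of 11590 genes in all. ANKH had 2 probes, of which 0 passed, and HOMER2 and SORD carry no named probe here and were not analysed here. Of the 36 genes, 26 were detected on all 18 arrays and 10 on fewer. The gene listed as TMEPAI is given under its current symbol, PMEPA1.

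Expression was measured in LNCaP, an androgen-dependent human prostate cancer line, to ask how mutants of FOXA1 alter expression with and without androgen. Control cells carried the empty hairpin vector pGIPZ and GFP, and knockdown cells carried shFOXA1, a hairpin against FOXA1, and GFP. The other 7 lines carried shFOXA1 and an inserted FOXA1: wild type (WT), G87R, D226N, M253K, F266S, L388M or FENG, a name that the labels do not define. All cells were hormone starved for 3 days in medium with 5% charcoal-stripped serum and then received ethanol, the vehicle, or 1 nM of the synthetic androgen R1881 for 24 hours. Each of the 9 lines thus gave 1 ethanol array and 1 R1881 array. No source used here says whether a line was 1 clone or a pool, or whether arrays came from separate cultures, so p-values measure only the spread between these arrays, which may be technical.

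Androgens are steroid hormones that induce transcription from enhancers in prostate epithelium. FOXA1 is a forkhead factor that binds and opens chromatin at many of these enhancers, and its loss is known to alter which androgen-responsive enhancers are used. The induced genes serve protein folding, growth factor signalling, transcription, membrane transport and cell division. The lines were set in classes by their FOXA1. The intact-forkhead lines were control, WT, G87R and L388M, the last 2 with a changed residue outside the DNA-binding forkhead. The depleted or forkhead-mutant lines were knockdown, D226N, M253K and F266S, the last 3 with a changed residue inside it. FENG was put in neither class.

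RefSeq promoters on GRCh38.p14, running from 250 bases before to 50 bases after a transcription start, were found for 31 of the 39 genes (54 windows). They are shown for the 3 genes whose window held a forkhead motif, searched on both strands as TGTTTAC and as TGTTTGC. No other of the 31 genes held it, so the choice did not rest on androgen responses. Capitals mark the forkhead motif or its reverse complement. LIFR and MAK hold it on the opposite strand and FKBP5 on the gene's own. The windows are LIFR at chr5:38557418-38557717, MAK at chr6:10838490-10838789 and FKBP5 at chr6:35728534-35728833, all on the minus strand and written in the direction of transcription.
LIFR: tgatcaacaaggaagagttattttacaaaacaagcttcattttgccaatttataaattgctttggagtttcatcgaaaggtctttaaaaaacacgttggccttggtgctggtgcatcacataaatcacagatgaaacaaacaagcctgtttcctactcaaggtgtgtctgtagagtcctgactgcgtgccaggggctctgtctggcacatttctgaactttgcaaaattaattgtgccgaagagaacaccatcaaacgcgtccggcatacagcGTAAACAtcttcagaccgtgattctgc
MAK: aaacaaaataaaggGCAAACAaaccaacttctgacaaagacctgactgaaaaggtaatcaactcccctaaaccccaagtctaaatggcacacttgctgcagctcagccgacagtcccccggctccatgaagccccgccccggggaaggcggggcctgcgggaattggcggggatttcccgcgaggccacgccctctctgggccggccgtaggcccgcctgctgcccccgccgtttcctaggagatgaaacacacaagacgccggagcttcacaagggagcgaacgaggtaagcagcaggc
FKBP5: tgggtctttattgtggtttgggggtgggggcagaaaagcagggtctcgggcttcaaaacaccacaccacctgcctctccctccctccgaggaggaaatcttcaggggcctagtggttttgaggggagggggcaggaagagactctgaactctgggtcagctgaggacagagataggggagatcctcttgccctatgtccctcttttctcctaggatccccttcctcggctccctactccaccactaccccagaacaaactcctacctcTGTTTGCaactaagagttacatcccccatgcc
Either forkhead motif was in 3 of the 54 windows (5.56%) and in 7.17% of all 35116 promoters of this length. The share was below that of all promoters, and a match in these letters is a description, not a binding site.

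The arrays had mean raw signals of 233.1 to 303.9, with 15855 to 17278 probes detected. All log2 values below are normalised intensities, and since probes differ in brightness, levels are compared between arrays of 1 gene and not between genes. FOXA1 itself measured 11.92 with ethanol and 11.72 with R1881 in control and 10.60 to 11.15 on the other 16 arrays, a knockdown difference of -0.71 ± 0.12 (SE, limma adjusted p = 0.0029). Its probe read no higher in WT than in knockdown, and whether it reads the inserted FOXA1 was not tested. The luminal markers KRT8, EPCAM, CDH1, HOXB13 and FOLH1 were detected on all 18 arrays, and KRT5, KRT14, PTPRC, CD3E, COL1A2, DCN, PECAM1 and CDH5 on 0. TP63 carries no named probe here. CD68, a lysosomal protein listed as a leukocyte marker, was detected on all arrays and separated the classes, at 6.58 to 8.16 in intact-forkhead lines and 8.21 to 9.97 in the others. The other 2 leukocyte markers, PTPRC and CD3E, were not detected on any array. COL1A1 was detected on 12 arrays. The arrays M253K ethanol, G87R ethanol and FENG R1881 stood apart in an earlier analysis. The keratin KRT18 measured 4.33, 5.64 and 5.49 there and 6.99 to 8.11 on the other 15. Each is 1 of the 2 arrays behind its line's response, so the single-line values of M253K, G87R and FENG rest on them. Counts of genes called are given with and without them.

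R1881 raised 30 of the 36 genes over the 9 lines, and lowered 0 (limma on all 18 arrays with line and treatment as terms, Benjamini-Hochberg adjusted p under 0.05). Over all genes, 5.88% were called higher and 7.58% lower. PTPN21, STEAP4 and TUBA3E were not detected on any ethanol array and MAK on 1, so they entered the test through the R1881 arrays, where they are high. Of the 26 genes detected on all 18 arrays 21 rose and 0 fell, against 7% and 8.66% of all genes so detected. The median difference, R1881 minus ethanol, was 0.68 for the 36 genes and -0.02 for all genes. In 25 genes R1881 was above ethanol in each of the 9 lines, as in 3.75% of all genes. In 12 every R1881 array was above every ethanol array, as in 0.949% of all genes. The genes that did not pass were IQGAP2 at 0.23, ZBTB10 at 0.28, ZMIZ1 at 0.11, XRCC5 at 0.02, GNAI3 at -0.0048 and VAPA at -0.20. For those 6 the listed description as androgen-induced was not borne out by the test in these arrays. Without M253K, IQGAP2 (0.36, limma adjusted p = 0.023) passed as higher and VAPA (-0.32, limma adjusted p = 0.019) as lower. Then 31 genes rose and 1 fell, while the shares of all genes called also grew, to 8.03% higher and 8.48% lower. The same 2 genes also passed without the lines of the 3 arrays that stood apart (M253K, FENG and G87R, both arrays of each). There 7.97% of all genes were called higher and 8.71% lower.

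**Figure D1:**
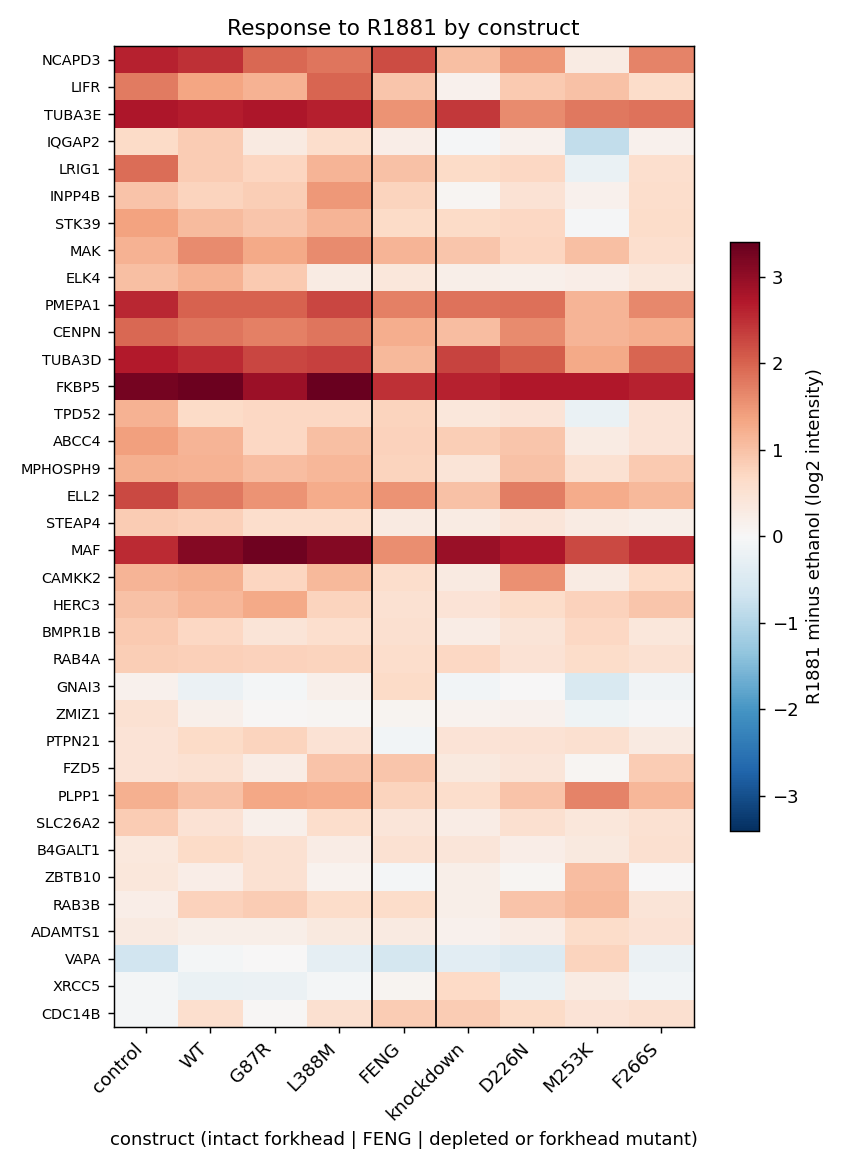
Response to R1881 of the 36 measured genes (rows) in the 9 lines (columns), as R1881 minus ethanol log2 intensity, with 1 value per line. Rows run from the most negative to the most positive difference between depleted or forkhead-mutant lines and intact-forkhead lines; red is higher with R1881, and in most upper rows the colour is paler in the 4 rightmost columns than in the 4 leftmost.

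The 36 genes responded most in control and least in knockdown. The median response over the genes was 1.01 in control, 0.86 in WT, 0.86 in L388M and 0.76 in G87R. It was 0.70 in FENG, 0.65 in D226N, 0.56 in F266S, 0.53 in M253K and 0.45 in knockdown. Every intact-forkhead line thus had a higher median than every depleted or forkhead-mutant line, with FENG between them. The median over all genes was -0.18 in M253K and 0.06 in FENG, and between -0.06 and 0.02 in the other lines. The medians of the 36 genes are not corrected for these shifts. Whether the place of FENG between the classes rests on them was not tested. The response was above 1 for 19 genes in control and for 8 in knockdown. M253K gave the lowest response of the 9 lines for 11 genes and knockdown for 10, while control gave the highest for 16. Shares over all genes were not computed for these counts. Over all genes, the SD of responses around each gene's mean was 0.52 in M253K, 0.25 in knockdown and 0.27 in control. M253K thus lay far from the mean for genes in general, and the counts are descriptions.

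No gene of the 36 passed the test of the difference in response between the classes, and neither did any of the 11590 genes (limma on the 9 differences, percent called higher 0 and lower 0). At an unadjusted p under 0.05 there were 17 of the 36 genes and 533 of all genes (4.6%). With no background correction TUBA3D passed as lower (-0.77, limma adjusted p = 0.043). The median difference was -0.41 for the 36 genes and -0.02 for all genes. It was below 0 for 30 of the 36 genes, against 54.2% of all genes. For 15 of the 36 genes every depleted or forkhead-mutant line responded less than every intact-forkhead line, as did 2% of all genes. With median scaling in place of quantile normalisation this count was 8, and the share of all genes 0.535%. Without the lines of the 3 arrays that stood apart, which leaves 3 lines a class and makes separation easier, it was 18, and the share of all genes 5.69%. The 15 genes were NCAPD3, LIFR, TUBA3E, IQGAP2, LRIG1, INPP4B, STK39, MAK, PMEPA1, CENPN, FKBP5, TPD52, MPHOSPH9, STEAP4 and RAB4A. The 2 ends of this order were NCAPD3 (-1.10) and CDC14B (0.35). STEAP4 was detected on 3 arrays, all R1881 arrays of intact-forkhead lines, so its place among the 15 is no independent test. Of the 26 genes detected on all 18 arrays, the responses of 11 separated in this way, against 1.99% of all genes so detected.

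With R1881 the levels themselves differed between the classes. Of the 36 genes 16, STEAP4 included, were lower in depleted or forkhead-mutant lines and 0 were higher (limma on the 9 R1881 arrays, adjusted p under 0.05), against 5.32% of all genes called lower and 4.43% called higher. STEAP4 was detected only on R1881 arrays of intact-forkhead lines, so it entered the test through the class where it is high, and its call is no independent test. Of the 26 genes detected on all 18 arrays 12 were lower, against 7.56% of all genes so detected. In 15 genes the 4 values of each class did not overlap, with the depleted or forkhead-mutant lines below, as in 10.9% of all genes. The median difference was -0.41 for the 36 genes and -0.02 for all genes. With ethanol 0 of the 36 genes passed in either direction, against 0.88% of all genes higher and 0.38% lower, the median was -0.02, and 8 had an unadjusted p under 0.05, as did 15.5% of all genes. Without the 3 arrays that stood apart 0 passed, against 0.561% of all genes higher and 0.233% lower. There 5 had an unadjusted p under 0.05, and the share of all genes at that p was not computed for this fit. The count with R1881 was smaller with some single lines left out, and so was the share of all genes called lower. The count was 7 without M253K (2.28% of all genes), 8 without control (2.67%) and 8 without WT (2.13%). It was 9 without F266S (2.39%), 10 without G87R (2.29%) and 9 with median scaling (2.69%). The 3 arrays that stood apart hold no R1881 array of either class, so leaving them out does not bear on it. MAK, LIFR, PLPP1, IQGAP2, TPD52, CENPN and NCAPD3 passed with each of the 8 lines left out in turn, and LRIG1 with 7 of 8.

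**Figure D2:**
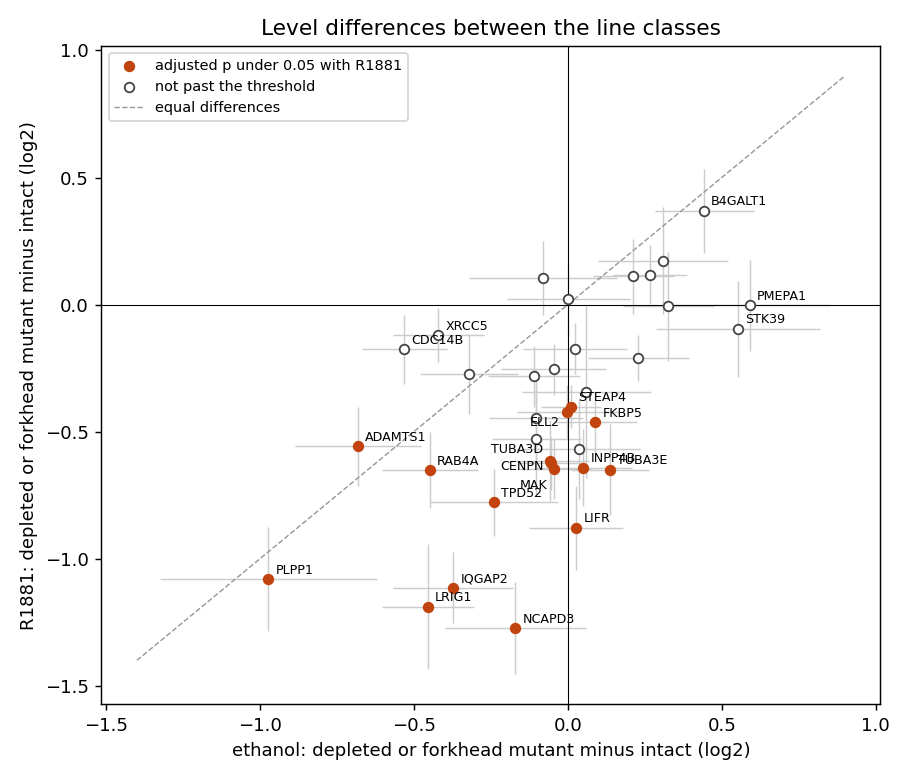
Difference in log2 level between depleted or forkhead-mutant lines and intact-forkhead lines with ethanol (horizontal) and with R1881 (vertical) for the 36 genes, with SE bars (n = 4 lines a class). Filled points passed the limma test with R1881; most lie near 0 horizontally and below the dashed line of equal differences, while PLPP1, ADAMTS1 and RAB4A lie close to that line.

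Of the signalling genes, 13 of 15 rose with R1881 and 7 were lower in depleted or forkhead-mutant lines with R1881. FKBP5, a co-chaperone of steroid receptors, rose the most, by 2.89 ± 0.10 (SE, 7.42-fold, limma adjusted p = 1.2e-08). With ethanol FKBP5 measured 8.09 in control, 7.98 in WT, 8.17 in G87R, 8.07 in L388M, 8.44 in FENG, 8.51 in knockdown, 8.08 in D226N, 7.96 in M253K and 8.12 in F266S. With R1881 it measured 11.35 in control, 11.33 in WT, 11.09 in G87R and 11.43 in L388M, then 10.92 in FENG, and 11.13 in knockdown, 10.81 in D226N, 10.68 in M253K and 10.72 in F266S. Every line thus responded by 2.48 or more, and the R1881 values of the classes overlapped through knockdown alone. The response was 3.22 ± 0.21 (SD, n = 4) in intact-forkhead lines and 2.67 ± 0.07 (SD, n = 4) in the others. The R1881 level differed by -0.46 ± 0.12 (SE, limma adjusted p = 0.039), a call lost without control, WT, D226N, M253K, F266S or L388M.

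LIFR, the receptor chain for leukaemia inhibitory factor, kept near-equal ethanol levels and differed with R1881. The ethanol values were 5.45 in control, 5.86 in WT, 5.96 in G87R and 5.47 in L388M against 5.85 in knockdown, 5.52 in D226N, 5.87 in M253K and 5.62 in F266S, with 5.67 in FENG. With R1881 they were 7.22 in control, 7.20 in WT, 7.14 in G87R and 7.44 in L388M against 5.99 in knockdown, 6.41 in D226N, 6.85 in M253K and 6.24 in F266S, with 6.62 in FENG. The 4 intact-forkhead lines lay within a narrow band above all others, and knockdown hardly moved, with a response of 0.14. The R1881 difference was -0.88 ± 0.16 (SE, limma adjusted p = 0.013), against 0.03 ± 0.15 (SE) with ethanol.

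LRIG1, a membrane protein that restrains ErbB receptors, measured lower in the depleted or forkhead-mutant lines under both treatments. Ethanol values were 8.25 in control, 8.10 in WT, 8.42 in G87R and 8.06 in L388M against 7.41 in knockdown, 7.79 in D226N, 8.03 in M253K and 7.79 in F266S, and 7.72 in FENG. With R1881 they were 10.15 in control, 8.97 in WT, 9.15 in G87R and 9.21 in L388M against 8.07 in knockdown, 8.48 in D226N, 7.80 in M253K and 8.37 in F266S, and 8.71 in FENG. Control was the brightest line with R1881, and M253K was the only one in which LRIG1 measured lower with R1881 than with ethanol. The classes did not overlap under either treatment, and the R1881 difference was -1.19 ± 0.25 (SE, 2.28-fold, limma adjusted p = 0.018), against -0.46 ± 0.15 (SE, limma adjusted p = 0.17) with ethanol. Its second probe gave -1.34 with R1881.

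IQGAP2, a scaffold that binds calmodulin and small GTPases, did not pass the test of the androgen response over the 9 lines, yet its R1881 levels separated the classes. With ethanol it measured 5.81 in control, 5.71 in WT, 6.20 in G87R and 5.75 in L388M, 5.56 in FENG, and 5.75 in knockdown, 5.31 in D226N, 5.87 in M253K and 5.06 in F266S. The R1881 arrays read 6.46 in control, 6.57 in WT, 6.51 in G87R and 6.34 in L388M, 5.78 in FENG, and 5.72 in knockdown, 5.45 in D226N, 5.03 in M253K and 5.22 in F266S. All 4 intact-forkhead lines were brighter with R1881 than with ethanol, while the response was -0.03 in knockdown, 0.14 in D226N, 0.15 in F266S and -0.83 in M253K. The R1881 difference was -1.11 ± 0.14 (SE, limma adjusted p = 0.0041).

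INPP4B, a phosphoinositide phosphatase that opposes AKT signalling, was detected on 13 arrays. Ethanol values were 4.87 in control, 5.04 in WT, 5.02 in G87R, 4.45 in L388M, 4.69 in FENG, 4.69 in knockdown, 5.05 in D226N, 5.06 in M253K and 4.79 in F266S. With R1881 they were 5.85 in control, 5.81 in WT, 5.87 in G87R and 5.92 in L388M, 5.45 in FENG, and 4.75 in knockdown, 5.53 in D226N, 5.20 in M253K and 5.40 in F266S. The intact-forkhead lines lay close together and all others were lower, knockdown most. The difference was -0.64 ± 0.15 (SE, limma adjusted p = 0.027), a call lost in 5 of 8 fits that left out a line. MAK, a kinase of germ cells and prostate, was detected on 1 ethanol array and all 9 R1881 arrays. Its R1881 level was 6.04 ± 0.12 (SD, n = 4) in intact-forkhead lines and 5.39 ± 0.22 in the others, a difference of -0.65 ± 0.12 (SE, limma adjusted p = 0.013).

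PLPP1, a membrane phosphatase that acts on phosphatidic and lysophosphatidic acid, measured lower in the depleted or forkhead-mutant class under both treatments. Ethanol values were 10.02 in control, 10.12 in WT, 9.93 in G87R and 9.97 in L388M against 9.55 in knockdown, 9.63 in D226N, 7.77 in M253K and 9.20 in F266S, and 9.23 in FENG. With R1881 they were 11.24 in control, 11.13 in WT, 11.25 in G87R and 11.24 in L388M against 10.14 in knockdown, 10.61 in D226N, 9.45 in M253K and 10.34 in F266S, and 9.99 in FENG. The intact-forkhead lines lay close together with R1881, and M253K was the lowest with either treatment. The response was 1.20 ± 0.14 (SD, n = 4) against 1.10 ± 0.45 (SD, n = 4), a difference of -0.11, while its other 2 probes gave 0.33 and 0.02, so the probes disagree in the direction of the response difference. The level differences were -1.08 ± 0.20 (SE, limma adjusted p = 0.013) with R1881 and -0.97 ± 0.35 (SE, limma adjusted p = 0.21) with ethanol, and the other 2 probes gave -1.06 and -0.77 with R1881.

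CDC14B, a phosphatase of the cell cycle, had the most positive difference in response, 0.35 ± 0.18 (SE). The ethanol arrays read 6.53 in control, 6.40 in WT, 6.89 in G87R, 6.42 in L388M, 5.81 in FENG, 5.96 in knockdown, 6.05 in D226N, 6.21 in M253K and 5.89 in F266S. Under R1881 its signal was 6.46 in control, 6.97 in WT, 6.94 in G87R, 6.97 in L388M, 6.68 in FENG, 6.81 in knockdown, 6.71 in D226N, 6.66 in M253K and 6.44 in F266S. The ethanol levels of the intact-forkhead lines were all above those of the other class, and with R1881 most lines came together. Its second probe gave a response difference of -0.02, so the probes disagree. CAMKK2, a calmodulin kinase kinase upstream of AMPK, was detected on 13 arrays. Its response was 1.05 ± 0.22 (SD, n = 4) in intact-forkhead lines and 0.70 ± 0.59 (SD, n = 4) in the others, where it ran from 0.29 in knockdown to 1.54 in D226N. STK39, a kinase that acts on cation chloride cotransporters, responded by 1.14 ± 0.18 against 0.49 ± 0.35 (SD, n = 4 each). Its ethanol levels, 10.15 ± 0.38 and 10.70 ± 0.52, and its R1881 levels, 11.28 ± 0.21 and 11.19 ± 0.41, overlapped between the classes. PMEPA1, a membrane protein that limits TGF-beta signalling, measured 7.29 ± 0.26 against 7.88 ± 0.57 with ethanol and 9.51 ± 0.16 against 9.50 ± 0.40 with R1881. For both genes the ethanol mean was the one that was higher in the depleted or forkhead-mutant lines, by 0.55 for STK39 and 0.59 for PMEPA1 (limma adjusted p = 0.36 and 0.32). PMEPA1's second probe gave a response difference of -0.06, against -0.59.

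None of the remaining 4 signalling genes passed a test between the classes (limma). BMPR1B, a BMP receptor, rose by 0.55 ± 0.07 (SE), FZD5, a Wnt receptor, by 0.54 ± 0.10 (SE), and PTPN21, a tyrosine phosphatase, by at least 1.11-fold, since it was not detected on any ethanol array. Their response differences were -0.21, -0.14 and -0.15, and the second probe of BMPR1B gave 0.01. GNAI3, an inhibitory G protein subunit, responded by 0.01 ± 0.18 and -0.19 ± 0.23 (SD, n = 4 each).

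**Figure D3:**
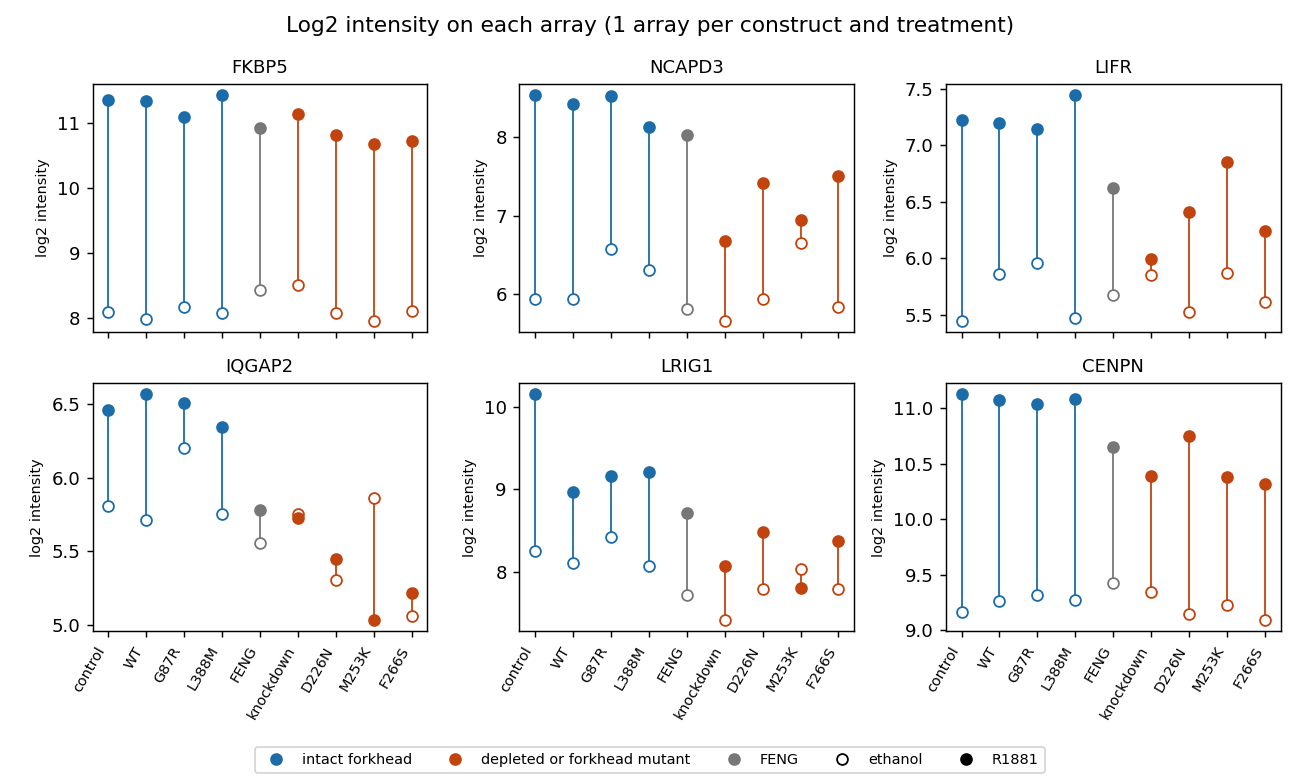
Log2 intensity of FKBP5, NCAPD3, LIFR, IQGAP2, LRIG1 and CENPN on each of the 18 arrays, with open points for ethanol, filled points for R1881 and a line joining the pair of 1 cell line. Vertical axes differ between panels and do not start at 0; the filled points of depleted or forkhead-mutant lines lie below those of intact-forkhead lines except for FKBP5, where knockdown overlaps.

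Of the transcription genes 3 of 5 rose with R1881. MAF, a bZIP factor, rose by 2.67 ± 0.15 (SE). Under ethanol its signal was 5.61 in control, 6.41 in WT, 6.08 in G87R, 6.41 in L388M, 6.96 in FENG, 6.61 in knockdown, 5.96 in D226N, 5.99 in M253K and 6.20 in F266S. With R1881 it measured 8.14 in control, 9.52 in WT, 9.39 in G87R, 9.52 in L388M, 8.54 in FENG, 9.54 in knockdown, 8.70 in D226N, 8.24 in M253K and 8.71 in F266S. Control was the dimmest of all lines with either treatment, below the other intact-forkhead lines, and knockdown was among the brightest. The R1881 difference between the classes was -0.34 ± 0.34 (SE, limma adjusted p = 0.55). With inserted FOXA1 only, that is D226N, M253K and F266S against WT, G87R and L388M, it was -0.93 (limma adjusted p = 0.012).

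ELL2, an elongation factor of RNA polymerase II, rose by 1.49 ± 0.11 (SE) and with R1881 measured 8.51 ± 0.15 in intact-forkhead and 8.09 ± 0.14 in the other lines (SD, n = 4 each). The difference of -0.42 (limma adjusted p = 0.033) was lost in 6 of 8 fits that left out a line. ELK4, an ETS factor, was detected on 13 arrays. Ethanol values were 5.29 in control, 4.68 in WT, 4.77 in G87R, 5.29 in L388M, 5.02 in FENG, 4.67 in knockdown, 5.34 in D226N, 4.90 in M253K and 5.26 in F266S. With R1881 they were 6.30 in control, 5.86 in WT, 5.66 in G87R, 5.58 in L388M, 5.41 in FENG, 4.86 in knockdown, 5.51 in D226N, 5.13 in M253K and 5.63 in F266S. The response was 1.02 in control, 1.18 in WT and 0.89 in G87R, and between 0.17 and 0.39 in all other lines, L388M included. ZBTB10, a zinc finger repressor, and ZMIZ1, a PIAS-like transcriptional coregulator, responded by 0.28 ± 0.10 and 0.11 ± 0.07 (SE). Neither passed.

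All 4 measured transport genes rose, STEAP4 among them as a gene detected only with R1881. ABCC4, an efflux pump for cyclic nucleotides and prostaglandins, rose by 0.84 ± 0.10 (SE). With R1881 it measured 11.08 ± 0.14 in intact-forkhead and 10.87 ± 0.01 in the other lines (SD, n = 4 each) without overlap, but the difference did not pass (-0.21, limma adjusted p = 0.16). STEAP4, a metalloreductase, was not detected on any ethanol array and was detected on 3 R1881 arrays, all of intact-forkhead lines. Its R1881 level was at least 1.08-fold lower in the other lines, given as a description. SLC26A2, a sulfate transporter, rose by 0.47 ± 0.07 (SE) with overlapping classes. B4GALT1, a galactosyltransferase of the Golgi, rose by 0.42 ± 0.06 (SE). With ethanol it measured 6.93 in control, 7.11 in WT, 7.28 in G87R, 7.17 in L388M, 7.74 in FENG, 7.51 in knockdown, 7.41 in D226N, 8.01 in M253K and 7.34 in F266S. Under R1881 its signal was 7.30 in control, 7.76 in WT, 7.80 in G87R, 7.43 in L388M, 8.26 in FENG, 7.92 in knockdown, 7.62 in D226N, 8.34 in M253K and 7.89 in F266S. It measured higher in depleted or forkhead-mutant lines with ethanol, without overlap, and M253K was the brightest with both treatments. Neither level difference passed, at 0.44 (limma adjusted p = 0.21) and 0.37 (limma adjusted p = 0.18).

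Of the traffic genes, 3 of 4 rose. TPD52, a protein of vesicle traffic that is often amplified in prostate cancer, measured 8.41 ± 0.11 in intact-forkhead and 7.63 ± 0.26 in the other lines with R1881 (SD, n = 4 each), a difference of -0.78 ± 0.13 (SE, limma adjusted p = 0.0093). RAB4A, a GTPase of endosome recycling, was higher with R1881 in every line. The ethanol arrays read 7.44 in control, 7.28 in WT, 7.33 in G87R, 7.02 in L388M, 6.99 in FENG, 7.01 in knockdown, 7.06 in D226N, 6.49 in M253K and 6.72 in F266S. With R1881 it measured 8.28 in control, 8.09 in WT, 8.10 in G87R, 7.77 in L388M, 7.59 in FENG, 7.71 in knockdown, 7.56 in D226N, 7.13 in M253K and 7.24 in F266S. The depleted or forkhead-mutant lines were lower with R1881, without overlap, at a difference of -0.65 ± 0.15 (SE, limma adjusted p = 0.026), and M253K was the lowest under both treatments. That call was lost in 5 of 8 fits that left out a line. RAB3B, a GTPase of regulated secretion, rose by 0.65 ± 0.10 (SE), with responses of 0.63 ± 0.28 and 0.67 ± 0.42 (SD, n = 4 each).

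VAPA, an endoplasmic reticulum protein that tethers membranes, was the gene of the list with the most negative androgen response. Under ethanol its signal was 6.35 in control, 6.11 in WT, 5.77 in G87R, 5.93 in L388M, 6.30 in FENG, 6.44 in knockdown, 6.33 in D226N, 5.35 in M253K and 5.71 in F266S. The R1881 arrays read 5.70 in control, 6.05 in WT, 5.80 in G87R, 5.62 in L388M, 5.71 in FENG, 6.09 in knockdown, 5.86 in D226N, 6.12 in M253K and 5.52 in F266S. It was lower with R1881 in 7 of 9 lines and higher by 0.76 in M253K, whose ethanol array was the dimmest. Its second, dimmer probe gave a mean response of 0.06.

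Of the division and repair genes 5 of 6 rose, with a median response of 1.62, and 4 were lower in depleted or forkhead-mutant lines with R1881. NCAPD3, a condensin II subunit that compacts chromosomes, had the most negative response difference of the 36 genes. With ethanol it measured 5.94 in control, 5.93 in WT, 6.57 in G87R, 6.31 in L388M, 5.81 in FENG, 5.65 in knockdown, 5.93 in D226N, 6.65 in M253K and 5.83 in F266S. Under R1881 its signal was 8.54 in control, 8.42 in WT, 8.53 in G87R and 8.14 in L388M, then 8.04 in FENG, and 6.68 in knockdown, 7.42 in D226N, 6.94 in M253K and 7.51 in F266S. All 4 intact-forkhead lines and FENG were brighter than the brightest of the other lines, F266S. The response was 2.22 ± 0.39 against 1.12 ± 0.62 (SD, n = 4 each). The R1881 difference was -1.27 ± 0.18 (SE, 2.42-fold, limma adjusted p = 0.0063), against -0.17 ± 0.23 (SE) with ethanol. CENPN, a kinetochore protein that binds the centromere, rose by 1.50 ± 0.10 (SE). Its R1881 level was 11.08 ± 0.03 in intact-forkhead and 10.46 ± 0.19 in the other lines (SD, n = 4 each), a difference of -0.62 ± 0.10 (SE, limma adjusted p = 0.0091), against -0.06 ± 0.10 (SE) with ethanol.

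TUBA3E and TUBA3D encode near-identical alpha tubulins, so their probes may read each other's RNA and the member is uncertain. TUBA3E was not detected on any ethanol array and was detected on all 9 R1881 arrays. Its ethanol signal was 4.53 in control, 4.43 in WT, 4.33 in G87R, 4.24 in L388M, 4.51 in FENG, 4.60 in knockdown, 4.73 in D226N, 4.38 in M253K and 4.34 in F266S. With R1881 it measured 7.28 in control, 7.09 in WT, 7.06 in G87R and 6.87 in L388M, then 6.03 in FENG, and 7.01 in knockdown, 6.35 in D226N, 6.17 in M253K and 6.19 in F266S. It was at least 3.54-fold higher with R1881. Knockdown kept its level near those of intact-forkhead lines and the forkhead mutants and FENG were lower. The difference between the classes was -0.65 ± 0.18 (SE, limma adjusted p = 0.048), a call lost in 7 of 8 fits that left out a line. TUBA3D measured 8.51 ± 0.04 against 7.90 ± 0.37 with R1881 (SD, n = 4 each). The difference was -0.61 ± 0.16 (SE, limma adjusted p = 0.038), a call that passed in 2 of 8 fits that left out a line. Its second probe gave -0.96.

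MPHOSPH9, a centriole protein, rose by 0.91 ± 0.09 (SE). The ethanol arrays read 7.26 in control, 6.97 in WT, 6.95 in G87R, 6.90 in L388M, 6.92 in FENG, 6.72 in knockdown, 6.96 in D226N, 6.76 in M253K and 7.24 in F266S. The R1881 arrays read 8.47 in control, 8.15 in WT, 8.00 in G87R, 8.03 in L388M, 7.67 in FENG, 7.16 in knockdown, 7.96 in D226N, 7.28 in M253K and 8.12 in F266S. Knockdown and M253K were low with R1881, while D226N and F266S lay near the intact-forkhead values, and the difference of -0.53 did not pass (limma adjusted p = 0.14). XRCC5, the larger subunit of the Ku heterodimer of end joining, did not respond past the threshold. Under ethanol its signal was 8.75 in control, 8.65 in WT, 8.96 in G87R, 8.78 in L388M, 8.56 in FENG, 8.02 in knockdown, 8.60 in D226N, 8.28 in M253K and 8.56 in F266S. Under R1881 its signal was 8.69 in control, 8.43 in WT, 8.76 in G87R, 8.70 in L388M, 8.66 in FENG, 8.71 in knockdown, 8.38 in D226N, 8.55 in M253K and 8.46 in F266S. The ethanol levels of depleted or forkhead-mutant lines were below those of intact-forkhead lines, knockdown most, and the R1881 levels overlapped.

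Both genes outside these groups rose. HERC3, a HECT-domain ubiquitin ligase, rose by 0.84 ± 0.09 (SE), and its R1881 levels did not differ past the threshold (-0.01, limma adjusted p = 0.99). ADAMTS1, a secreted metalloprotease, rose by 0.32 ± 0.07 (SE). With ethanol it measured 11.31 in control, 10.83 in WT, 10.81 in G87R, 10.71 in L388M, 10.37 in FENG, 10.69 in knockdown, 10.30 in D226N, 9.76 in M253K and 10.19 in F266S. With R1881 it measured 11.63 in control, 11.04 in WT, 11.00 in G87R, 11.03 in L388M, 10.68 in FENG, 10.83 in knockdown, 10.56 in D226N, 10.39 in M253K and 10.69 in F266S. Control was the brightest line and M253K the dimmest under both treatments, and the classes did not overlap under either. The R1881 difference of -0.56 ± 0.15 (SE, limma adjusted p = 0.048) was lost in 7 of 8 fits that left out a line.

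Knockdown against control set 2 arrays against 2. Of the 36 genes 6 were lower and 2 were higher (limma, adjusted p under 0.05), against 3.74% of all genes lower and 4.56% higher. The lower genes were LRIG1 (-1.46), ELK4 (-1.03), MPHOSPH9 (-0.92), PLPP1 (-0.78), ADAMTS1 (-0.71) and RAB4A (-0.50), and the higher were MAF (1.20) and B4GALT1 (0.60). ELK4 was not detected in knockdown, so its difference is at least 1.88-fold. The count of lower genes was 0 without control R1881 (1.29% of all genes) and 1 without knockdown R1881 (1.53%). It was 4 without control ethanol (2.36%) and 4 without knockdown ethanol (1.53%). The count of higher genes was 1 without control R1881 (PMEPA1), against 2.81% of all genes. It was 0 in the other 3 fits, against 2.45% to 2.72%. Each of the 8 calls was lost in at least 2 of these 4 fits. MAF's second probe gave 0.06, against 1.20. Without the 3 arrays that stood apart 7 genes were lower and 3 higher, against 8.13% and 7.42% of all genes.

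**Figure D4:**
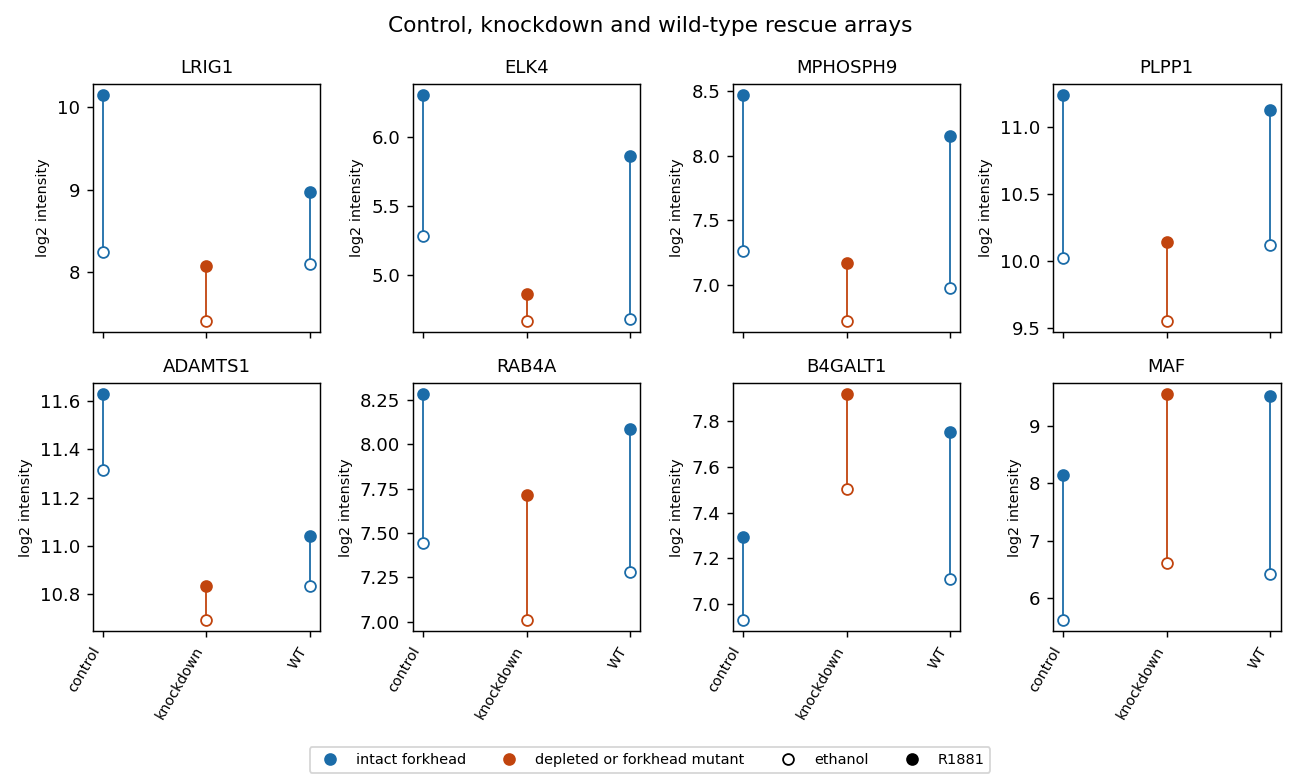
Log2 intensity of the 8 genes called in knockdown against control, in the control, knockdown and WT lines, with open points for ethanol and filled points for R1881 (1 array each). Vertical axes differ and do not start at 0; for LRIG1, PLPP1, MPHOSPH9 and RAB4A both WT points lie between knockdown and control or near control, and for MAF they lie near knockdown.

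Re-expression of wild-type FOXA1 against knockdown shares the knockdown arrays with the comparison above, so its values are set beside it. Of the 36 genes 0 passed in either direction by limma, against 2.03% of all genes higher and 2.6% lower. At an unadjusted p under 0.05 there were 7 of the 36 genes and 15.8% of all genes. The differences were 0.79 for LRIG1, 0.51 for ELK4, 0.62 for MPHOSPH9, 0.77 for PLPP1, 0.18 for ADAMTS1 and 0.32 for RAB4A, and -0.11 for MAF and -0.28 for B4GALT1. PLPP1 came closest (limma adjusted p = 0.061), and it passed with median scaling (0.98), with no background correction (0.73), without knockdown ethanol (1.07) and without the 3 arrays that stood apart. With those 3 arrays left out MPHOSPH9 also passed (0.62, limma adjusted p = 0.0498).

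The response in FENG lay between the means of the classes for 18 of the 36 genes, and for 13.8% of all genes. These shares depend on how far apart the class means lie. The means differed at an unadjusted limma p under 0.05 for 17 of the 36 genes and 4.6% of all genes. The shares are therefore not like for like. The FENG response was below the intact-forkhead mean for 29 of the 36, against 41.2% of all genes. It was below every intact-forkhead line for 19, against 23.7%. For 6 of the 36 it was the lowest of the 9 lines, against 15.9% of all genes. Its R1881 array stood apart, and the part of that array in these counts was not tested.

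Other androgen-related lists were read beside these genes. Of 11 measured lipid genes of 15 that androgen induces, 9 rose. With R1881, 3 were lower in depleted or forkhead-mutant than in intact-forkhead lines (SCD, FASN and SREBF1), with a median difference of -0.32. Of 9 measured genes of 10 for secreted and surface proteins, 7 rose and 1, ACP3, fell. With R1881, 6 of these 9 were lower in depleted or forkhead-mutant lines, with a median difference of -0.95. They were KLK2, KLK3, TMPRSS2, SLC45A3, NDRG1 and ACP3. The medians that follow are for the whole list. Their median difference with ethanol was -0.77, against -0.02 for the 36 genes, and their median response difference -0.01, against -0.41. Within this list the response differences ran widely, from -0.82 for KLK2 to 0.23 for KLK4. The lipid genes had medians of -0.19 with ethanol and -0.16 in response. These medians are descriptions and were not tested against each other. CD68 moved with the classes in the same arrays, as given above, and its part in these differences was not tested. In bulk RNA, fewer cells of a type and less RNA per cell cannot be told apart.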

How the data were processed

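RNA from 9 lines under 2 treatments (18 arrays) was read on Illumina HumanHT-12 arrays, per the labels. Per the file headers, the authors deposited raw intensity and detection p-values for 47303 probes. Intensities began at 68.4, without background subtraction. Their processed intensity table, which starts at -15.4, served as an alternative. The submitters' processing notes name GenomeStudio, without a version, and the steps behind the processed table, the slides and the scan dates are not stated in these sources, so no batch was tested.

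Raw intensity was background corrected with limma 3.58.1 neqc in R 4.3.3 (offset 16), quantile normalised and put on a log2 scale. By the platform annotation, 30102 probes name 1 gene, 8 several and 17193 none. Probes with detection p under 0.01 on at least 2 arrays were kept, and the brightest named probe stood for a gene, which left 11590 genes. Line and treatment entered 1 limma fit (8 residual degrees of freedom), which gave the androgen response and the pairwise comparisons. Class comparisons were fitted on 9 differences or 9 levels, with 6 residual degrees of freedom. P-values were Benjamini-Hochberg adjusted over all genes. Where a group was not detected on any array, its fold is a bound against the lowest signal among detected probes. All 36 measured genes are named, with array-by-array values for FKBP5, the 6 most negative and 4 most positive response differences, and every gene called in the knockdown comparison. The members, classes and lists were chosen with earlier results of these data known. Some genes of the other lists and markers, and results that need them, are not reported here. The fits were tested on simulated data. The alternatives were median scaling, no background correction, the authors' processed values, no filter on dim probes or detection on all arrays, and the mean of all probes. Further ones were FENG in the depleted or forkhead-mutant class, inserted FOXA1 only, 3 arrays left out, and each line or array left out in turn. For the androgen response and its difference between the classes, leaving out the 3 arrays removed their whole lines.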

Additional observations from a re-analysis of the deposited data

Results flagged for a closer look

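In 11 of 144 groups of 4 lines, 1 line stood far from the other 3, where the nominal rate of the rule is 1 in 20. The groups share the same arrays and are not independent, and the share over all genes was not computed. The values below are therefore descriptions, and chance is not excluded for any of them. M253K had the lowest response among the depleted or forkhead-mutant lines for LRIG1 (-0.22, the others 0.58 to 0.70), STK39 (-0.032, the others 0.62 to 0.70) and TPD52 (-0.23, the others 0.38 to 0.47). Its ethanol array is 1 of the 3 that stood apart, and the part of that array in these values was not tested. Control had the highest response of the intact-forkhead lines for TPD52 (1.17, the others 0.66 to 0.71).

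Control also stood apart from the other intact-forkhead lines in 4 levels with R1881. It was lowest for MAF (8.14, the others 9.39 to 9.52) and CDC14B (6.46, the others 6.94 to 6.97). It was highest for CAMKK2 (6.22, the others 5.86 to 5.91) and ADAMTS1 (11.63, the others 11.00 to 11.04). Control is the only line without shFOXA1, so hairpin and FOXA1 state cannot be told apart in it.

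With R1881, G87R was lowest for MAK (5.86, the others 6.09 to 6.12) and WT for PLPP1 (11.13, the others 11.24 to 11.25). D226N was the highest of the depleted or forkhead-mutant lines for CENPN (10.75, the others 10.32 to 10.39).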

How the results depend on the processing

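The 30 genes raised by R1881 were the same genes with median scaling. They also passed without the lines M253K, FENG and G87R, where IQGAP2 joined them and 1 gene, VAPA, was called lower. With median scaling 9 genes, all among the 16, were lower with R1881 in depleted or forkhead-mutant lines (2.69% of all genes). Responses did not overlap for 8 (0.535% of all genes), and 1 gene was higher in knockdown (2.43%). On wild-type re-expression 1 gene was higher with median scaling, against 1.51% of all genes. It was 1 with no background correction (1.98%) and 2 without the 3 arrays (4.12%). With no background correction 1 gene passed as lower in the response difference (0.0345%). With no filter on dim probes 1 gene was higher in knockdown (2.57%). With FENG in the depleted or forkhead-mutant class 1 gene, CDC14B, was lower with ethanol (1.92%). The cause of these shifts was not tested. Median scaling moved the median of all genes to -0.11 in knockdown and 0.17 in re-expression. Leaving out 1 line gave 30 to 31 genes raised and 0 to 1 lowered by R1881, 7 to 15 lower in R1881 level, and 0 in response or ethanol level. Leaving out 1 array gave 0 to 1 higher and 0 to 4 lower in knockdown. It gave 0 to 1 higher in re-expression, against 0.604% to 0.88% of all genes. The 1 reversed value was the response difference of VAPA without M253K (-0.089), which was up to 0.32 with other lines left out. Over all genes, calls lower and higher in R1881 level were 617 and 514, and 264 and 246 without M253K. Those with ethanol were 44 and 102, and 0 and 0 without WT. The arrays carry no replicate numbers, and treatments were paired within a line, which enters the additive fit as a block. With 1 array per condition and 8 or 6 residual degrees of freedom, small differences may go uncalled, and dim genes near background are compressed.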
